A study of Mus musculus with 4 samples.

Results

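miR-132 and miR-212 are neuronal miRNAs cut from neighboring hairpins of 1 primary transcript. The transcription factor CREB switches this transcript on when neurons are active or receive neurotrophins, and the pair is known for shaping dendrites, spines and synaptic plasticity in the cortex and hippocampus. Each hairpin yields a 3p and a 5p arm, and an arm loaded into an Ago protein silences mRNAs that pair with its seed, the bases near its 5′ end. The values below describe the 4 arms, mmu-miR-132-3p, mmu-miR-132-5p, mmu-miR-212-3p and mmu-miR-212-5p, in the RNA-induced silencing complex (RISC) of the mouse brain. They were chosen by name. They are 4 of 1029 miRNA names in the table, and 782 of its 85704 sequences carry one of these names.

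The samples were 4 libraries of RISC-bound small RNAs (R-sRNAs) from male C57BL/6J mice, 2 from mice aged 2 months (young) and 2 from mice aged 18 months (old). All mice were of the same wild-type strain. Cortex and hippocampus were combined, so all cell types of both regions contributed. R-sRNAs were isolated with a peptide of GW182, which binds Ago1 to Ago4, and were sequenced (Ago-RP-Seq). The labels number the libraries of an age as replicates but do not say whether more than 1 mouse went into a library, so p-values measure the spread between these libraries. In bulk tissue, fewer neurons and less miRNA per neuron cannot be told apart.

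The reference sequences are shown first, because the reads of 1 arm departed from them. All come from RefSeq on GRCm38.p6, plus strand, and all 4 members matched an entry. The mature sequences read as follows, with bases 2 to 8, the seed, in capitals.
miR-132-3p: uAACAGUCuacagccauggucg
miR-212-3p: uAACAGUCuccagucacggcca
miR-132-5p: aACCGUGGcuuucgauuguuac
miR-212-5p: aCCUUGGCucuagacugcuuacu
The 3p arms have the same first 9 bases and match at 17 of 22 positions, so that they share a seed. No other of the 1679 mature mouse miRNAs in the reference table has this seed, whether read as bases 2 to 8 or as the 6mer of bases 2 to 7. The 5p arms have different seeds.

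The hairpins are printed with both mature arms in capitals, to show which bases at the ends of the reads were encoded by the genome.
Mir212: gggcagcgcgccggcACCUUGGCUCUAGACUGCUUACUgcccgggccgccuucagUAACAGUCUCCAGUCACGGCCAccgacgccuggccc
Mir132: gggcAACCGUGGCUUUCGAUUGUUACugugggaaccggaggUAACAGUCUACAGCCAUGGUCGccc
Mir212 lies at chr11:75173388-75173478 and Mir132 at chr11:75173682-75173747, 203 bases apart. In the GENCODE annotation both hairpins fall within 1 intron, chr11:75172598-75173977, between the first and second exon of the non-coding gene 1700016P03Rik. miR-212-5p spans bases 75173403 to 75173425, miR-212-3p bases 75173443 to 75173464, miR-132-5p bases 75173686 to 75173707 and miR-132-3p bases 75173723 to 75173744 of chromosome 11.

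Values are given as reads per 1000000 reads of a library (CPM). The libraries held between 9067007 and 11388999 reads behind this scale, so that 3 reads correspond to 0.263 to 0.331 CPM. An R-sRNA is read end to end, and its value needs no scaling by length, although ligation can favor some sequences. Neuronal markers were abundant in all libraries, as the 4 neuronal miRNAs (miR-124-3p, miR-9-5p, miR-128-3p and miR-137-3p) summed to between 170692 and 196718 CPM.

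miR-132-3p was one of the most abundant miRNAs in the RISC. Its levels were 37398 and 32033 CPM in the young libraries against 33493 and 27849 CPM in the old ones, and it ranked between 4 and 7 of the 1029 names. The libraries of both ages overlapped. The other arms were far lower. miR-212-3p, which carries the same seed, had 2038 and 1784 CPM in the young libraries against 1642 and 1348 CPM in the old ones. miR-132-5p had 1722 and 1643 CPM in the young libraries against 1298 and 1228 CPM in the old ones. For both of these arms the 2 old libraries lay below the 2 young ones. miR-212-5p, the least abundant arm, had 18.8 and 13.0 CPM in the young libraries against 26.4 and 14.6 CPM in the old ones. These values overlapped and rested on at most 279 reads per library.

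The order of the levels was miR-132-3p, miR-212-3p, miR-132-5p and miR-212-5p in all 4 libraries. The ranges of miR-212-3p and miR-132-5p over the libraries overlapped, and their neighbors in the order did not. Together the 4 arms made up 4.12%, 3.55%, 3.65% and 3.04% of the reads, in the order 2-month replicates 1 and 2 and 18-month replicates 1 and 2. The 95% Wilson intervals, which cover counting error only, ran from 4.11% to 4.13%, from 3.54% to 3.56%, from 3.63% to 3.66% and from 3.03% to 3.06%. The spread between libraries of an age was thus far wider than the counting error. miR-132-3p alone gave 90.3% to 91.9% of the reads of the 4 arms.

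**Figure D1:**
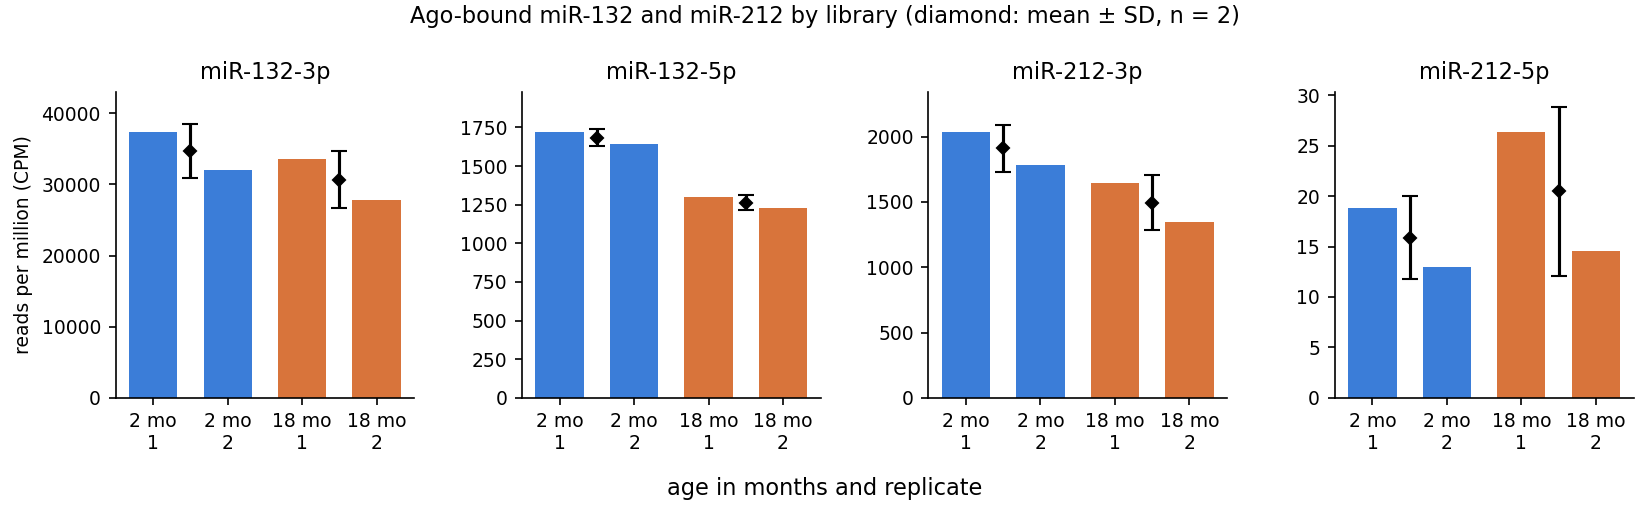
CPM (linear axes from 0, a separate scale for each arm) of the 4 arms in each library, with 2-month libraries in blue and 18-month libraries in orange. Diamonds and bars show the mean ± SD of the 2 libraries of an age. The 18-month values of miR-132-5p (1298 and 1228) and miR-212-3p (1642 and 1348) lie below all 2-month values, and those of the other arms overlap.

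The study compared the ages to ask whether old brain loses nontoxic miRNAs from the RISC. None of the 4 arms passed the test between the ages, at an unadjusted or an adjusted p under 0.05. miR-132-3p averaged 34716 ± 3794 CPM (SD, n = 2) at 2 months and 30671 ± 3991 CPM (n = 2) at 18 months, a log2 change of -0.18 (SE 0.22, adjusted p = 0.680 from limma). miR-132-5p averaged 1683 ± 56.0 CPM (n = 2) and 1263 ± 49.8 CPM (n = 2), a log2 change of -0.41 (SE 0.20, adjusted p = 0.358 from limma). miR-212-3p averaged 1911 ± 180 CPM (n = 2) and 1495 ± 208 CPM (n = 2), a log2 change of -0.36 (SE 0.22, adjusted p = 0.437 from limma). miR-212-5p averaged 15.9 ± 4.10 CPM (n = 2) and 20.5 ± 8.36 CPM (n = 2), a log2 change of 0.31 (SE 0.37, adjusted p = 0.672 from limma). All log2 changes are of CPM + 1 and are given as 18 months minus 2 months.

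The arms can be read against all miRNAs tested. Of the 456 miRNA names with a mean of at least 10 CPM, 74 (16.2%) passed an unadjusted p under 0.05, with 55 lower and 19 higher in the old libraries, and 1 (0.219%) an adjusted p under 0.05. Both old libraries lay below both young ones for 189 of these names (41.4%), and for 2 of the 4 arms. The median log2 change of all tested names was -0.22 on the CPM scale. When each library was rescaled by the median of its ratios to the others, that median became -0.014, and 39 of 64 calls were higher and 25 lower. On this scale the log2 change of miR-132-3p was 0.032, that of miR-132-5p -0.20, that of miR-212-3p -0.15 and that of miR-212-5p 0.51, so the change of miR-132-3p lay close to the median of all names and its sign depended on the scaling.

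**Figure D2:**
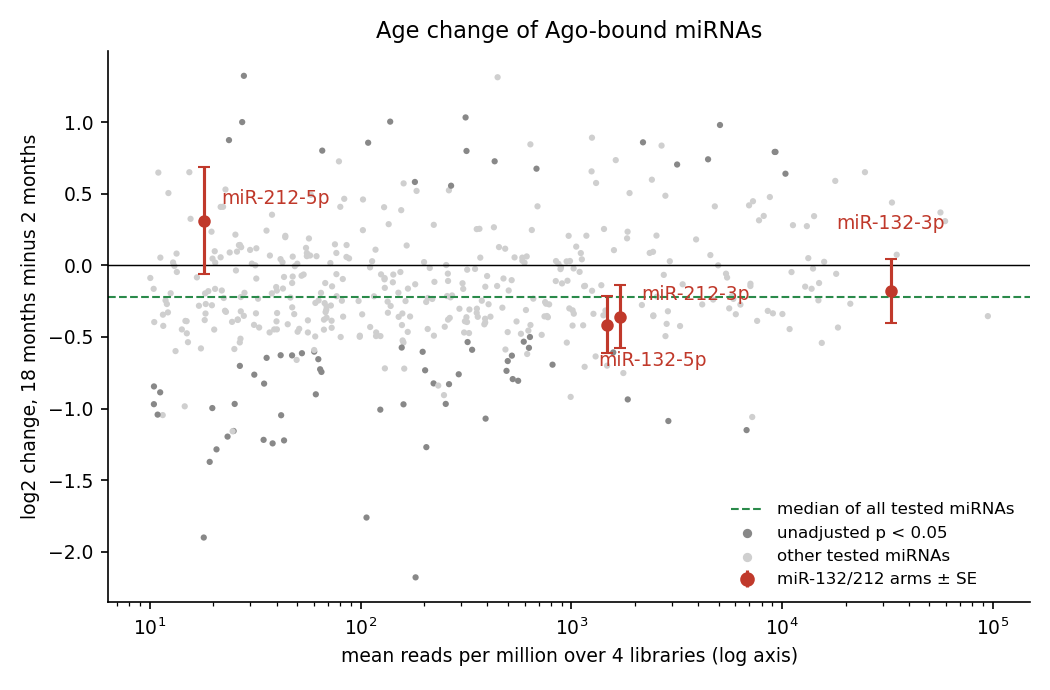
Log2 change of CPM + 1 from 2 to 18 months (vertical axis) against the mean CPM over the 4 libraries (log axis) for the 456 tested miRNAs, dark grey where the unadjusted p was under 0.05. The 4 arms are in red with their SE. miR-132-3p (-0.18), miR-132-5p (-0.41) and miR-212-3p (-0.36) lie around the dashed median at -0.22, and miR-212-5p lies at 0.31.

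The ratios between the arms, which share members with each other, did not overlap between the ages. How many ratios between other miRNAs separate in this way was not counted. With 2 libraries against 2, the smallest 2-sided p that the exact permutation test allows is 0.33. miR-132-3p exceeded miR-212-3p 18.3 and 18.0 times in the young libraries and 20.4 and 20.7 times in the old ones, a difference of 0.18 in the log2 ratio (exact p = 0.33). miR-132-3p exceeded miR-132-5p 21.7 and 19.5 times in the young libraries and 25.8 and 22.7 times in the old ones, a difference of 0.23 in the log2 ratio (exact p = 0.33), which was 0.14 without 18-month replicate 1. miR-212-3p exceeded miR-212-5p 108 and 137 times in the young libraries and 62.2 and 92.6 times in the old ones, a difference of -0.69 in the log2 ratio (exact p = 0.33), which was -0.40 without 18-month replicate 1. The last ratio has the few reads of miR-212-5p in its denominator. When only reads with the reference seed were counted, the difference in the miR-132 log2 arm ratio was -0.0072.

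Most reads of the 3p arms began at the reference base. The reference seed was carried by 93.6%, 93.8%, 93.7% and 93.9% of the miR-132-3p reads, in the library order used above. It was carried by 93.7%, 94.7%, 94.8% and 94.8% of the miR-212-3p reads. The shared 6mer AACAGU thus reached 37291, 32092, 33319 and 27727 CPM over all sequences, and 98.89% to 98.95% of this came from the 2 arms. A further 1.03% to 1.07% came from reads without a miRNA name. Among other names, only reads assigned to miR-128-3p (7.06 to 12.5 CPM), miR-199a-3p or miR-199b-3p (at most 0.331 CPM) and miR-34a-5p (at most 0.221 CPM) carried it. miR-132-3p supplied 94.7% to 95.4% of the reads of the 2 arms.

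The most abundant reads of miR-132-3p are shown with bases 2 to 8 in capitals, T standing for U, since they differ at both ends.
full-length read: tAACAGTCtacagccatggtcg
with 1 added T: tAACAGTCtacagccatggtcgt
1 base shorter: tAACAGTCtacagccatggtc
start 1 base downstream: aACAGTCTacagccatggtcg
with 1 added A: tAACAGTCtacagccatggtcga
The first of these, identical to the reference, had 26797, 22718, 24193 and 19836 CPM, or 70.9% to 72.2% of the reads of this arm. The form with an added T had 2984, 2582, 2739 and 2114 CPM. The form with an added A had 1206, 959, 1060 and 890 CPM. The Mir132 hairpin continues with c after the last base of the arm, so neither added base is encoded there. The read 1 base shorter had 2115, 1902, 1630 and 1683 CPM, with both old libraries below both young ones (adjusted p = 0.740 from limma). How many of all tested sequences show this order was not counted. The read that starts 1 base downstream has the 6mer seed ACAGUC and had 1279, 1072, 1123 and 845 CPM. All reads of miR-132-3p with this seed made up 4.47%, 4.33%, 4.24% and 3.97% of the arm.

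miR-212-3p was more ragged at its 3′ end. Its 5 most abundant reads, and the most abundant one with another seed, are shown for comparison with miR-132-3p.
full-length read: tAACAGTCtccagtcacggcca
1 base shorter: tAACAGTCtccagtcacggcc
with 1 added T: tAACAGTCtccagtcacggccat
2 bases shorter: tAACAGTCtccagtcacggc
1 base longer: tAACAGTCtccagtcacggccac
start 1 base upstream: gTAACAGTctccagtcacggcca
The full-length read had 683, 502, 569 and 414 CPM, only 28.1% to 34.6% of the reads of the arm. The read 1 base shorter had 256, 290, 273 and 207 CPM, and the read 2 bases shorter 128, 166, 124 and 103 CPM. The form with an added T had 181, 127, 108 and 109 CPM. The form 1 base longer, whose last base is encoded in the hairpin, had 143, 103, 76.2 and 94.96 CPM. For both of these longer forms the old libraries lay below the young ones, an order whose share among all tested sequences was not counted. The read from 1 base upstream had 14.6, 10.7, 14.5 and 9.38 CPM. All reads with its 6mer seed, UAACAG, made up 3.63% and 3.60% of the arm at 2 months and 3.05% and 3.003% at 18 months.

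As defined here, added bases at the 3′ end were more frequent on the 3p arms than on the 5p arms in all 4 libraries. An added base is one that follows a match to the hairpin and differs from it, in a tail of at most 3 bases. Such tails were on 16.5%, 16.1%, 16.6% and 16.3% of miR-132-3p reads and on 31.4%, 29.7%, 27.3% and 29.5% of miR-212-3p reads. They were on 2.71%, 2.37%, 3.36% and 3.45% of miR-132-5p reads, and on 4.57%, 4.73%, 1.79% and 0.76% of the few miR-212-5p reads. On miR-132-3p, tails of T alone made up 9.75% to 10.3% of the reads and tails of A alone 5.09% to 5.70%. On miR-212-3p they made up 11.4% to 15.3% and 10.5% to 12.4%. An added base that happens to match the hairpin is counted as encoded, and a sequencing error in the last 3 bases as added. The Mir132 hairpin continues with u after the 5p arm, so a T added there counts as encoded. Encoded reads 1 base longer than the reference end made up 45.4% to 50.6% of miR-132-5p reads. How many of them carry an added T cannot be told, which limits the contrast between the miR-132 arms.

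**Figure D3:**
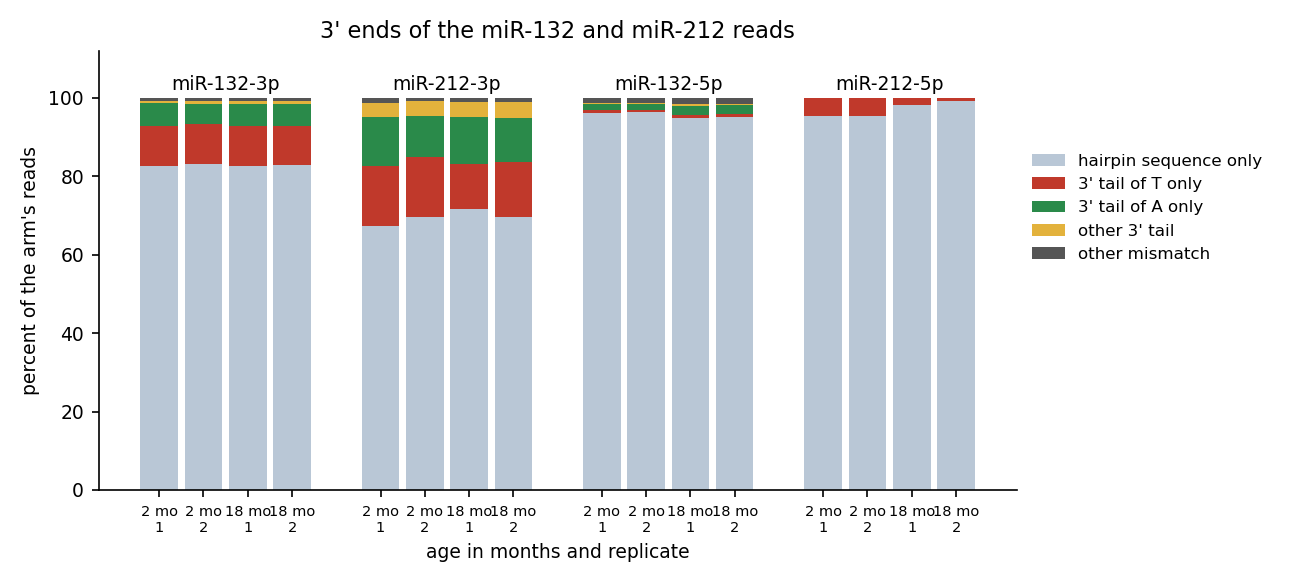
Percent of the reads of each arm (vertical axis, from 0) in each library that match the hairpin throughout, carry a 3′ tail of T, of A or of other bases, or differ from it elsewhere. Tails are on 16.1% to 16.6% of miR-132-3p reads, on 27.3% to 31.4% of miR-212-3p reads and on 2.37% to 3.45% of miR-132-5p reads.

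Most miR-132-5p reads did not carry the reference seed. Its most abundant read began 1 base downstream of the reference start and ended 1 base beyond the reference end. The forms below start at the reference base or 1 base downstream of it. They are shown because the start sets the seed in capitals and because the forms differed in their change with age.
reference start, end 2 bases short: aACCGTGGctttcgattgtt
reference start, end 1 base short: aACCGTGGctttcgattgtta
reference start, reference end: aACCGTGGctttcgattgttac
downstream start, end 1 base short: aCCGTGGCtttcgattgtta
downstream start, reference end: aCCGTGGCtttcgattgttac
downstream start, end 1 base longer: aCCGTGGCtttcgattgttact
The last of these had 825 and 795 CPM in the young libraries against 636 and 537 CPM in the old ones. The exact reference sequence had only 64.8 and 74.6 CPM in the young libraries against 30.1 and 49.96 CPM in the old ones. In sum, reads with the downstream seed CCGUGG had 1110 and 1096 CPM in the young libraries against 795 and 703 CPM in the old ones. Those with the reference seed ACCGUG had 587 and 527 CPM in the young libraries against 481 and 507 CPM in the old ones. The old libraries lay below the young ones for both seeds, as for the arm as a whole, and such orders were not counted over other seeds.

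The share of miR-132-5p reads with the reference seed was 34.1% and 32.0% in the young libraries and 37.0% and 41.3% in the old ones. The 95% Wilson intervals were 33.4% to 34.8%, 31.4% to 32.7%, 36.2% to 37.8% and 40.4% to 42.2%. The means were 33.1% ± 1.45 (SD, n = 2) and 39.2% ± 3.02 (n = 2, exact permutation p = 0.33). The difference of 6.09 percentage points was 3.95 without 18-month replicate 2 and 8.23 without 18-month replicate 1. The groups did not overlap, and this share does not depend on how libraries are scaled. How many other miRNAs have a seed share that separates the ages was not counted. The start and the end of these reads went together. Reads from the reference start mostly ended 1 or 2 bases short, with 251, 193, 200 and 220 CPM and 197, 191, 179 and 164 CPM. Reads from the downstream start mostly ended 1 base beyond the reference end.

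The largest age change among the named forms was in the downstream form with the reference end, the one ending in c. It had 155 and 203 CPM in the young libraries against 56.5 and 65.8 CPM in the old ones. The groups did not overlap, and the share of all tested sequences with such an order was not counted. The log2 change was -1.53 (SE 0.30), with an unadjusted limma p of 0.000634 and an adjusted p of 0.185. The unadjusted p stayed under 0.05 in all 13 alternative analyses, and DESeq2 gave an adjusted p of 0.00733, the only member sequence with an adjusted p under 0.05 in any of them. The read with the reference start and the same end fell from 69.7 ± 6.98 CPM (n = 2) to 40.0 ± 14.1 CPM (n = 2), a log2 change of -0.83 (SE 0.34) with an unadjusted limma p of 0.0373 and an adjusted p of 0.463. That p exceeded 0.05 without a filter, in limma without trend, in DESeq2, without 2-month replicate 1, without 2-month replicate 2 and without 18-month replicate 1, and the log2 change ranged from -1.18 to -0.47 over the 13 alternatives.

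The neighboring ends did not pass the test. With the downstream start, the log2 change was -0.47 for the form 1 base longer (adjusted p = 0.585 from limma) and -0.36 for the form 1 base shorter (adjusted p = 0.736 from limma). With the reference start it was -0.069 for the form 1 base short (adjusted p = 0.955 from limma) and -0.18 for the form 2 bases short (adjusted p = 0.858 from limma). All encoded reads that stop at the reference end made up 12.8% and 17.0% of the arm at 2 months and 6.71% and 9.47% at 18 months. Over all named miRNAs, reads ending in C made up 14.8% and 15.1% at 2 months and 14.6% and 12.2% at 18 months. The part of this difference between the libraries in the result was not tested.

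**Figure D4:**
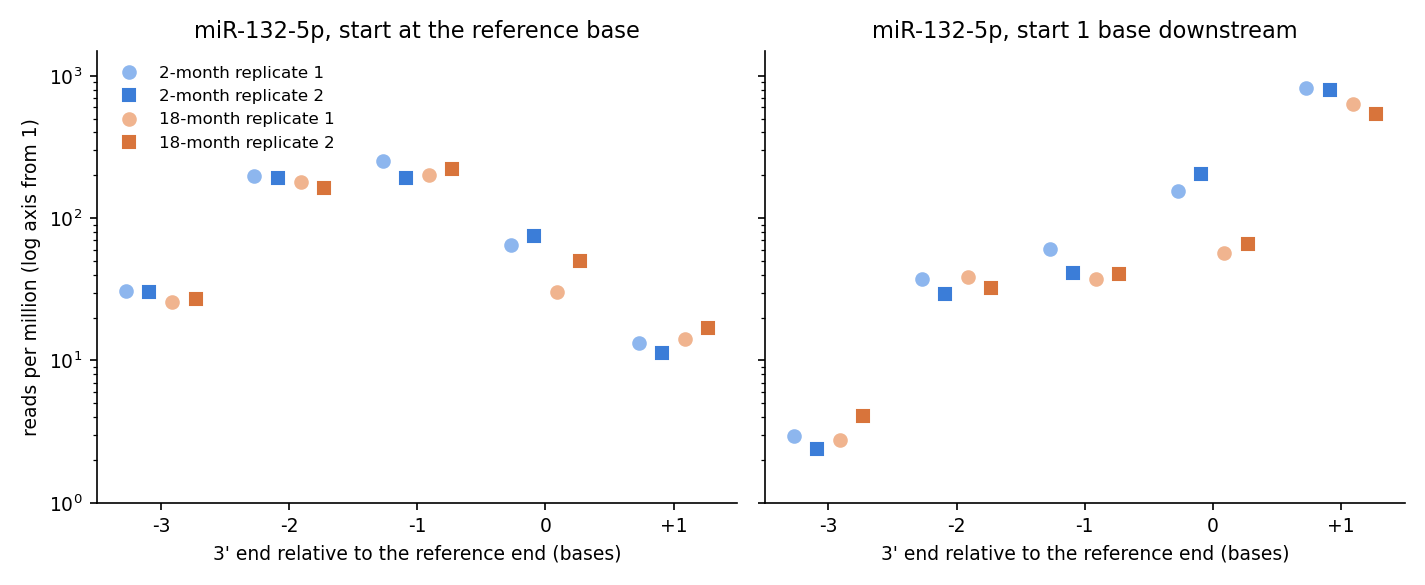
CPM (log axis) of encoded miR-132-5p reads by 3′ end, in bases relative to the reference end, for reads from the reference start (left) and from 1 base downstream (right). Each point is 1 library. Reads ending at 0 with the downstream start sit at 155 and 203 in the 2-month libraries and at 56.5 and 65.8 in the 18-month libraries, and the other ends lie closer together.

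The whole set of member sequences was tested in the same fit. A mean of at least 1 CPM was reached by 209 of the 782 sequences (123 of miR-132-3p, 27 of miR-132-5p, 57 of miR-212-3p and 2 of miR-212-5p), which held 99.6% of the reads. Of these, 13 (6.22%) had an unadjusted p under 0.05, against 1443 of all 14287 sequences tested (10.1%). Lower values at 18 months were found for 12 of the 13 (5.74% of 209), against 4.23% of all sequences tested, and none had an adjusted p under 0.05. By arm the calls were 3 of 123, 5 of 27, 5 of 57 and 0 of 2. Besides the miR-132-5p form ending in c, 1 call held in every alternative that tested it, a short miR-132-3p read from 3 bases downstream, cAGTCTACagccatggtc. It had 4.67 and 5.18 CPM in the young libraries against 1.32 and 1.21 CPM in the old ones, a log2 change of -1.38 with an unadjusted limma p of 0.00221 and an adjusted p of 0.257. The only one that was higher, a miR-132-5p read from the downstream start with an added A after the base before the reference end, had 2.29 and 2.72 CPM in the young libraries against 5.67 and 5.29 CPM in the old ones, a log2 change of 0.89 with an unadjusted limma p of 0.0235 and an adjusted p of 0.425. That p exceeded 0.05 in DESeq2, without 2-month replicate 1, without 18-month replicate 1 and without 18-month replicate 2. Among reads of miR-212-3p, the form 1 base longer with an added T, tAACAGTCtccagtcacggccact, had 49.9 and 61.9 CPM in the young libraries against 25.2 and 32.4 CPM in the old ones, a log2 change of -0.93 with an unadjusted limma p of 0.0155 and an adjusted p of 0.388. That call was lost without 2-month replicate 2 and without 18-month replicate 1.

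miR-212-5p followed its reference. Its most abundant read, aCCTTGGCtctagactgcttact, is the mature sequence itself and had 13.4 and 8.61 CPM in the young libraries against 20.8 and 10.6 CPM in the old ones, or 66.2% to 78.9% of the arm. The reference seed was on 97.0%, 94.6%, 95.3% and 97.0% of its reads. At this depth the 95% Wilson intervals of these shares all overlapped, the widest running from 89.7% to 97.2%.

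The read lengths of the arms were close between the ages. miR-132-3p reads averaged 21.98 and 21.96 nt at 2 months and 21.99 and 21.96 nt at 18 months. miR-132-5p reads averaged 21.3 nt at both ages, with a difference of -0.0563 nt (exact permutation p = 0.33). miR-212-3p reads averaged 21.9 and 21.7 nt at 2 months and 21.7 and 21.8 nt at 18 months. miR-212-5p reads averaged 23.1 and 23.2 nt at 2 months and 22.99 and 23.01 nt at 18 months.

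The 6mer seed viability, the survival in percent of control that a seed gave as an siRNA, is the mean over 3 mouse cell lines, so that a low value marks a toxic seed. The shared 3p seed AACAGU has a value of 63.1. Of the seeds that arise by a shifted start, ACAGUC has a value of 29.1 and CAGUCU one of 40.2. For miR-132-5p the reference seed ACCGUG has 59.8 and the downstream seed CCGUGG 45.2, and the miR-212-5p seed CCUUGG has 49.4. Weighted by CPM, the seeds of the 4 arms together averaged 60.8 and 60.8 at 2 months and 61.0 and 61.1 at 18 months. The means were 60.8 ± 0.00240 (n = 2) and 61.0 ± 0.0429 (n = 2, exact permutation p = 0.33), and the weighted median was 63.1 in each library. Reads of the 4 arms with a seed viability under 50 made up 8.30% and 8.44% at 2 months and 7.60% and 7.46% at 18 months. For miR-132-5p alone the weighted mean was 50.1 and 49.8 at 2 months and 50.6 and 51.3 at 18 months.

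For context, 20 other miRNAs known from synapses and neuronal activity were examined. All 20 were tested, and none had an unadjusted p under 0.05. Their median log2 change was -0.25, beside -0.22 for all tested names, and 7 of the 20 had both old libraries below both young ones, beside 41.4% of all tested names. The most abundant of them was miR-124-3p, which promotes neuronal identity, with 104115 and 107034 CPM in the young libraries against 98222 and 69405 CPM in the old ones. miR-128-3p, which dampens neuronal excitability, had 37433 and 62462 CPM in the young libraries against 69829 and 55905 CPM in the old ones. miR-9-5p, a regulator of neurogenesis, had 42830 and 25548 CPM in the young libraries against 27655 and 43876 CPM in the old ones. miR-132-3p varied less between libraries of an age than miR-128-3p or miR-9-5p.

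miR-132-3p amounted to 20.1% and 16.3% of the summed neuronal markers at 2 months and to 17.0% and 16.3% at 18 months. The markers of other cell types did not all stay level. The 3 epithelial markers summed to 10298 and 15110 CPM at 2 months and to 20288 and 21585 CPM at 18 months. Of these, miR-200b-3p and miR-141-3p were higher in both old libraries, and miR-204-5p overlapped (2100 and 2623 against 2256 and 2786 CPM). The 2 endothelial markers summed to 12243 and 11472 CPM and to 5422 and 8990 CPM. The fall was in miR-126a-3p (9242 and 8854 against 2557 and 6489 CPM), while miR-126a-5p overlapped (3000 and 2618 against 2865 and 2501 CPM). The 2 smooth muscle markers summed to 6415 and 6559 CPM and to 5033 and 4915 CPM. The 4 of microglia and other leukocytes summed to 3139 and 3566 CPM and to 2767 and 2897 CPM. Among these 4, miR-142a-3p and miR-223-3p overlapped between the ages. The sums for oligodendrocytes (4119 to 6565 CPM) and red blood cells (1698 to 3374 CPM) overlapped as well. Among all tested names, 41.4% had both old libraries below both young ones, and the median log2 change was -0.22. Of the 15 markers of other cell types, 3 had an unadjusted p under 0.05, beside 16.2% of all tested names. None of these markers had an adjusted p under 0.05, and none was at 0. Their part in the levels of the 4 arms was not tested.

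Across the 4 libraries, the pattern of miR-132-3p was most like that of let-7f-5p, with a distance of 0.11 log2 units between their deviations from their own means. It was followed by miR-126a-5p (0.13), miR-434-3p (0.14), miR-23b-3p (0.14) and miR-181d-5p (0.15), out of 270 miRNAs with a mean of at least 100 CPM. miR-212-3p, from the same transcript, lay at 0.18 and miR-132-5p, from the same hairpin, at 0.29. A pattern over 4 libraries shares their depth and scaling, so these distances are descriptions only.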

How the data were processed

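The authors pulled down Ago-bound RNA with a GW182 peptide, sequenced the small RNAs and ran the SPOROS pipeline, which trimmed the reads (Trim Galore in the submitters' processing notes), removed rare reads, matched the rest to small RNA lists by BLAST and deposited counts scaled to 1000000 reads per library (CPM) for each sequence. The aligner settings and the genome build behind the names are not given in the sources used here. The deposited 6mer seed viability score is the authors' mean over 3 mouse cell lines.

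The members and gene lists were chosen with earlier results of these data known. CPM were summed by miRNA name. All 4 columns gave whole reads (100% of nonzero values within 0.05 of a whole read). log2(CPM + 1) was tested in limma 3.58.1 (R 4.3.3, trend) for names averaging 10 CPM or more and sequences averaging 1 CPM or more, adjusted by Benjamini-Hochberg over all names or all sequences tested. On the recovered reads, edgeR 4.0.16 (quasi-likelihood) called 62 names and DESeq2 1.42.0 called 69. Single values were compared by a 2-sided exact permutation test (scipy 1.17.1). Tails were found by matching reads to the RefSeq hairpin. Named sequences were up to 5 per arm by summed CPM, the most abundant one with another seed, and, chosen after their values were seen, 3 more of the 13 called forms. The fit of names was first tested on simulated data, in which 200 of 456 miRNAs changed 4-fold at a dispersion of 0.05. Smaller changes and the fit of sequences were not simulated. Alternatives were other pseudocounts (0.1 and 5), filters, scalings, tools, a replicate block, a minimum length, the reference seed alone and leaving out each library.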

Additional observations from a re-analysis of the deposited data

Results flagged for a closer look

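Reads assigned to the hairpins but given no mature name were left out of the comparisons above and exceeded the level of 3 reads in every library. For Mir132 there were 444 such sequences with a mean of 507.6 CPM (576, 503, 520 and 432 CPM in 2-month replicates 1 and 2 and 18-month replicates 1 and 2), or 1.45% to 1.47% of the reads of that hairpin. For Mir212 there were 93 with a mean of 21.8 CPM (27.7, 20.8, 19.5 and 19.2 CPM), or 1.14% to 1.39%. Of the Mir132 sequences, 41 differed at 1 base from the full-length miR-132-3p read and had the same length. They held 337, 295, 321 and 266 CPM, which was 1.26% to 1.34% of that read's value in each library. Only 20 of the 444 and 11 of the 93 matched the hairpin exactly, and all but 1 of these were shorter than 18 nt, the shortest length that carried a mature name. No control library without RNA was analysed here.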

How the results depend on the processing

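No age change of the 4 arms passed the test in any alternative analysis, and the lowest adjusted p among them was 0.297. The log2 change of miR-132-3p turned from -0.18 to 0.048 in edgeR, 0.037 in DESeq2 and 0.032 after median-of-ratios scaling, each of which rescales the libraries. It ran from -0.31 (without 18-month replicate 1) to -0.047 (without 18-month replicate 2), and was -0.069 without 2-month replicate 1 and -0.29 without 2-month replicate 2. That of miR-212-5p ran from -0.10 to 0.72 when 1 library was left out, and was negative only without 18-month replicate 1. miR-132-5p (-0.45 to -0.17) and miR-212-3p (-0.50 to -0.13) stayed negative in all alternatives run. The count of called miRNAs was 74, and 125 without a filter and 43 above 100 CPM, as more or fewer names were tested. The higher calls were 19 of 74 on the CPM scale and 39 of 64 after rescaling.

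The count of called member sequences was 13. It was 31 of 782 without a filter (3.96%, beside 3.88% of all sequences), 5 of 69 above 10 CPM (7.25%, beside 13.5%), 3 of 209 in DESeq2 (1.44%, beside 6.59%) and 8 to 9 when 1 library was left out (3.83% to 4.31%, beside 7.45% to 9.88%), with 8 without 2-month replicate 2 and 8 without 18-month replicate 2. The cause of the lower count in DESeq2 was not tested. With the reference seed only, the age difference in the miR-132 log2 arm ratio was -0.0072 in place of 0.23. The weighted median of the seed viability differed by 0.

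Small differences changed sign when 1 library was left out. The reference-seed share ran from -0.0193 to 0.240 percentage points for miR-132-3p and from -0.799 to 1.57 for miR-212-5p, the latter negative without 2-month replicate 2 (-0.799) and without 18-month replicate 2 (-0.431). The mean length ran from -0.00541 to 0.0251 nt for miR-132-3p (-0.00251 without 2-month replicate 2) and from -0.170 to 0.0279 nt for miR-212-3p. The 18 nt minimum changed nothing, since all named reads were that long. The labels do not say whether same-numbered libraries were handled together (correlation of their deviations 0.18 over 456 miRNAs). With a replicate block 79 miRNAs and 13 member sequences were called, and no arm. Whether changes of the size seen in the arms could be called with 2 libraries per age was not tested.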
